A study of Mus musculus with 15 samples.

Results

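The genes described here make up the type I interferon response, the set of antiviral and regulatory genes that cells switch on when an interferon binds its receptor. Of 39 listed genes, 35 could be tested among 25251 genes or unnamed transcripts in mouse lung. A gene was represented by the brightest array probe whose RefSeq accession maps to it, and a probe counted only if 1 or more of the groups had 3 or more samples in which it was well above background. Mx1, Mx2 and Ddx60 had no matched probe, and the probes of Oas1g did not pass this filter.

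Lung RNA came from female C57BL/6 mice 7 to 8 weeks old, taken 24 h after the last exposure, and was hybridised to 2-colour Agilent arrays. Rod-like carbon nanotubes (rCNT) were given by oropharyngeal aspiration on 4 days, 10 µg each day in 50 µl of saline with phosphate buffer (PBS; 4 samples, "aspirated rCNT"), and their controls aspirated PBS alone (4 samples, "PBS"). Others inhaled rCNT as an aerosol of 6.2 to 8.2 mg/m3 for 4 h per day on 4 days (3 samples, "inhaled rCNT"), and their controls were untreated mice (4 samples, "untreated"). Whether each sample stands for 1 mouse or for several is not given in the labels, and the replicates of a group may thus be technical. The design compares the routes through the difference of each exposed group from its own control.

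Interferons alpha and beta bind the receptor chains IFNAR1 and IFNAR2, and the kinases JAK1 and TYK2 then phosphorylate transcription factors of the STAT family. STAT2 and IRF9 are subunits of the complex ISGF3, which binds a DNA motif called the interferon-stimulated response element in the promoters of the target genes. Many of the targets are themselves sensors or transcription factors of the same pathway, so that it feeds back on itself, while others block viruses directly. In the lung, epithelial cells, alveolar macrophages and plasmacytoid dendritic cells are known producers of interferon.

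The promoters of the listed genes carried the core letters of that element more often than promoters in general. RefSeq promoters of build GRCm38.p6 (250 bases before to 50 bases after the gene's start) were at hand for 28 of the 39 genes and were searched on both strands for the letters GAAA, any 2 letters and again GAAA (TTTC, any 2 letters and TTTC on the opposite strand), with overlapping matches counted. The letters were found for 14 of the 28 (50%) and for 3.99% of the 27025 genes with such a promoter. Stretches of promoter are shown for genes among the largest rises after aspiration (Isg15, Oas1a, Rsad2 and Ifit1), for Ifit3 beside its relative Ifit1, for Stat2, which was higher after both routes, and for Oas1g beside its close relative Oas1a. They read 5′ to 3′ along the gene's own strand and capitals mark the matches.
Isg15: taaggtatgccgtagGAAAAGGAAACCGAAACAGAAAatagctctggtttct
Oas1a: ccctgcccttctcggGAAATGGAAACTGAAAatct
Oas1g: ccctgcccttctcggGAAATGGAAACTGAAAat
Ifit1: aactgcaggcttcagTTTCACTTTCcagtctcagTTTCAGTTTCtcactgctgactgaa
Ifit3: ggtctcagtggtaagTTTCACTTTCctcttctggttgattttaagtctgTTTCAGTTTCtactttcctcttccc
Rsad2: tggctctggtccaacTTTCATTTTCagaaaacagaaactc
Stat2: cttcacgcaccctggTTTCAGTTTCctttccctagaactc
The stretch of Isg15 lies at chr4:156200860-156200911 on the minus strand and holds 3 overlapping matches. That of Oas1a lies at chr5:120907526-120907560 (minus strand) and that of Oas1g at chr5:120887614-120887646 (minus strand), and their first 33 bases are identical. Ifit1 (chr19:34640770-34640828, plus strand) and Ifit3 (chr19:34583358-34583431, plus strand) each hold 2 matches on the opposite strand. Rsad2 (chr12:26456548-26456587, minus strand) and Stat2 (chr10:128270261-128270300, plus strand) hold 1 each. A match is a description of the letters in this window, and no binding was measured. Among the tested genes, the 12 with a match had a median log2 difference of 0.83 after aspiration and the 14 without one a median of 0.81. Irf7 and Oasl1, which rose by 2.14 and 2.08 on the log2 scale, had no match in this window.

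After aspiration of rCNT, each of the 35 genes rose against PBS. They were called by limma at a Benjamini-Hochberg adjusted p below 0.05 over all genes tested, and 20.6% of all genes rose by the same rule. Their median log2 difference was 0.90, against -0.04 over all genes tested, and ranged from 0.23 for Ifi35 to 2.31 for Isg15. For 33 of the 35 the groups did not overlap, which held for 19.2% of all genes, and the exceptions were Ifi35 and Samd9l. Both groups were on slide 1, with each dye on 2 samples of each. At least a 2-fold rise was seen for 15 of the 35, and for 2.87% of all genes. In bulk lung RNA, a change in the number of cells of a type and a change in the RNA per cell cannot be told apart.

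**Figure D1:**
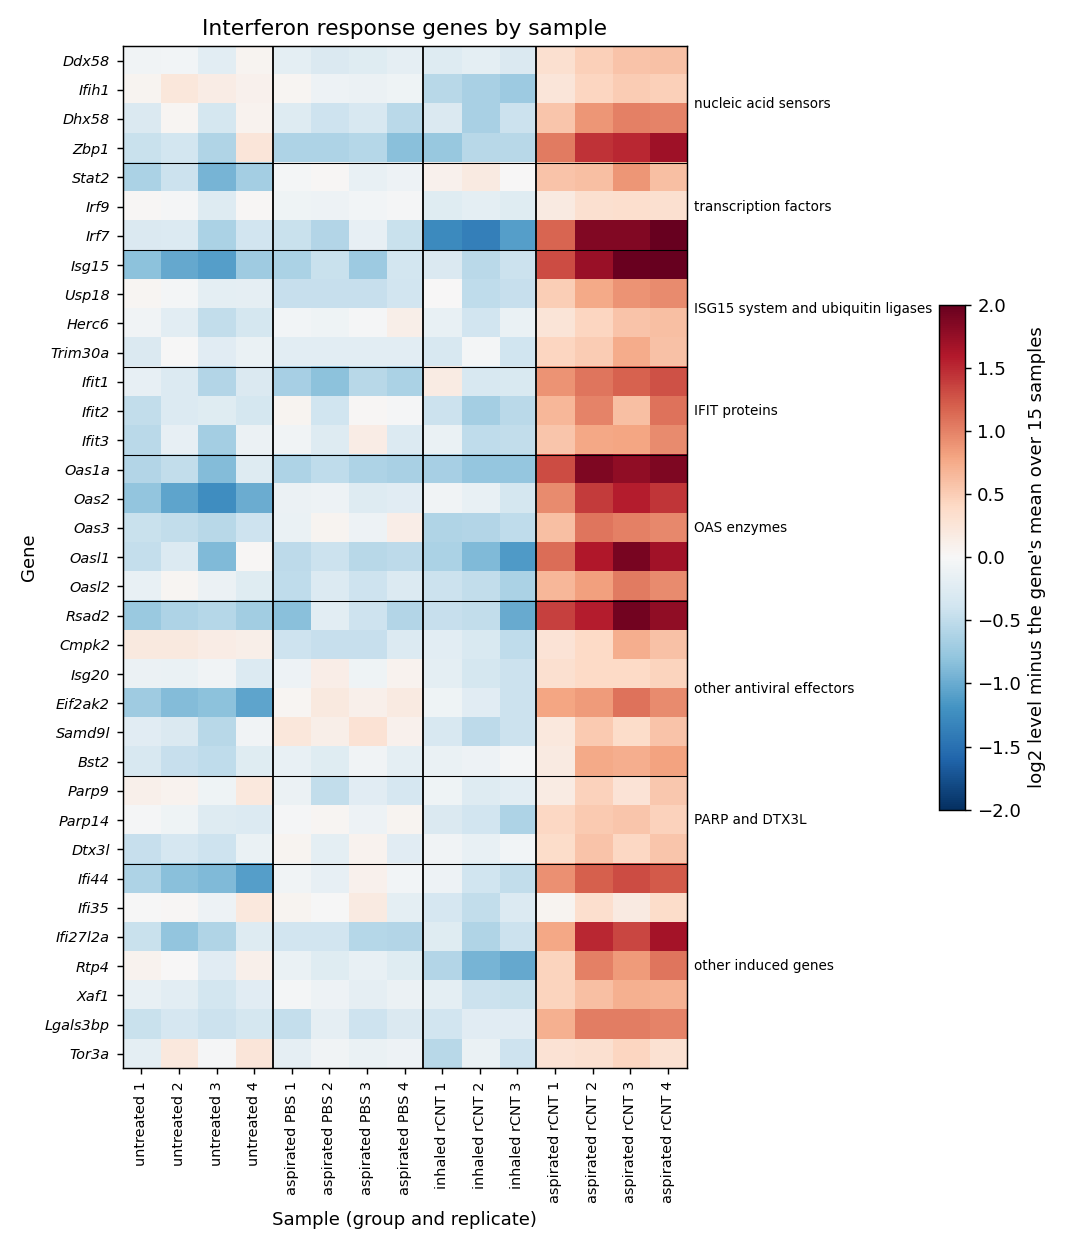
Heat map of the 35 tested genes (rows, grouped by role) in the 15 samples (columns), coloured by the normalised log2 intensity minus the gene's mean over the 15 samples (colours end at -2 and 2). The 4 aspirated rCNT samples are above the mean for nearly every gene, and in the other groups Irf7, Ifih1 and Rtp4 are lowest in inhaled rCNT while Stat2, Oas2, Eif2ak2 and Ifi44 are lowest in untreated samples.

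The mean over the 35 genes of each sample's deviation from the gene's mean over the 15 samples was 0.60 in aspirated rCNT replicate 1 and 0.89, 0.94 and 0.97 in replicates 2, 3 and 4. It lay between -0.24 and -0.21 in PBS, between -0.47 and -0.32 in inhaled rCNT and between -0.45 and -0.24 in untreated samples. Aspirated rCNT replicate 1 was the lowest of its group for 34 of the 35 genes. Each of the 35 rises remained called without that replicate, as it did without any other single sample.

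The sensors of nucleic acids rose after aspiration, all 4 of the 4 tested. Zbp1, a receptor of left-handed nucleic acid that can start cell death, stood at 10.14, 10.54, 10.60 and 10.79 in aspirated rCNT replicates 1 to 4 and at 8.48, 8.48, 8.53 and 8.27 in PBS (normalised log2 intensity, as are all levels given here). The aspirated samples were all above the PBS samples, with a log2 difference of 2.08 ± 0.14 (SE, n = 4 and 4), a 4.23-fold rise (adjusted p = 8.61e-09). Dhx58, which encodes LGP2, a regulator of the RNA sensors RIG-I and MDA5, rose by 1.24 ± 0.11 on the log2 scale (adjusted p = 1.34e-07). Ddx58, which encodes RIG-I itself, rose by 0.72 ± 0.07 (adjusted p = 4.53e-07). Ifih1, which encodes MDA5, rose by 0.48 ± 0.07 (adjusted p = 3.54e-05), from between 10.73 and 10.88 in PBS to between 11.09 and 11.36. For Ddx58 and Ifih1 a dimmer, alternative probe gave differences of 0.18 and 0.16, so that the size of these rises depends on the probe.

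Irf7 had the largest rise of the 3 transcription factors. It encodes the factor that amplifies the production of interferon alpha and is itself induced by interferon. Its levels in aspirated rCNT replicates 1 to 4 were 10.23, 10.93, 10.92 and 11.14, and those in PBS were 8.62, 8.49, 8.90 and 8.62. The lowest aspirated sample was above the highest PBS sample, and the log2 difference was 2.14 ± 0.13, a 4.42-fold rise (adjusted p = 2.16e-09). Stat2 and Irf9 rose less. Stat2 rose by 0.73 ± 0.09 (adjusted p = 1.01e-05) and Irf9 by 0.35 ± 0.06 (adjusted p = 0.000327). The levels of Irf9 lay close together within groups, from 12.44 to 12.59 in aspirated rCNT and from 12.16 to 12.24 in PBS.

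Isg15, a ubiquitin-like protein that is joined to other proteins during the response, had the largest rise of all 35 genes. It stood at 13.65, 14.07, 14.31 and 14.40 in aspirated rCNT replicates 1 to 4 and at 11.71, 11.90, 11.62 and 11.98 in PBS. No sample of the groups overlapped, and the log2 difference was 2.31 ± 0.13, a 4.95-fold rise (adjusted p = 1.55e-09). A separate probe of the gene gave 2.21. Usp18, the protease that takes ISG15 off again and dampens the receptor, rose by 1.22 ± 0.11 (adjusted p = 1.73e-07). Trim30a, a tripartite-motif protein, rose by 0.78 ± 0.08 (adjusted p = 9.73e-07). Herc6, the mouse ligase that attaches ISG15, rose by 0.47 ± 0.09 (adjusted p = 0.000565), and its alternative probe gave 0.80.

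The IFIT proteins bind foreign RNA and block its translation. Ifit1 rose most, from 8.91, 8.74, 9.02 and 8.94 in PBS replicates 1 to 4 to 10.47, 10.64, 10.75 and 10.85 in aspirated rCNT, by 1.77 ± 0.10 on the log2 scale (adjusted p = 1.47e-09). Ifit2 and Ifit3 rose by 0.92 ± 0.10 and 0.88 ± 0.12 (adjusted p = 2.29e-06 and 1.68e-05). For each of the 3 genes the 4 aspirated samples were above the 4 PBS samples. Ifit3 has a near-identical neighbour, Ifit3b (log2 difference of 0.91), and how far the probes tell them apart is uncertain.

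The OAS enzymes sense double-stranded RNA and make a small messenger that switches on RNase L, and Oasl1 and Oasl2 are their relatives. All 5 tested genes of this family rose. Oas1a stood at 13.40, 13.97, 13.86 and 13.96 in aspirated rCNT replicates 1 to 4 and at 11.48, 11.59, 11.48 and 11.44 in PBS. That is a log2 difference of 2.30 ± 0.11, or 4.92-fold, and had the smallest adjusted p of the 35 genes (2.22e-10). Oas1a has close relatives, Oas1g among them, and its probes may also read their transcripts. Oasl1 rose by 2.08 ± 0.17 (adjusted p = 7.72e-08), Oas2 by 1.52 ± 0.12 (3.4e-08) and Oasl2 by 1.23 ± 0.08 (7.97e-09). Oas3 was dim and rose by 0.92 ± 0.09 (adjusted p = 6.52e-07). Its probe was well above background in all samples of both aspiration groups, in 1 of 4 untreated samples and in 0 of 3 inhaled rCNT samples.

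Among the 6 other antiviral effectors the rises spread widely. Rsad2, which encodes viperin, an enzyme that makes a chain-terminating nucleotide, stood at 10.18, 10.39, 10.75 and 10.60 in aspirated rCNT replicates 1 to 4 and at 7.98, 8.60, 8.41 and 8.23 in PBS. Its log2 difference was 2.18 ± 0.14 (4.52-fold, adjusted p = 4.41e-09), with a wide gap between the groups. Cmpk2, its neighbour on the chromosome and a nucleotide kinase, rose by 0.90 ± 0.09 (adjusted p = 6.6e-07). Eif2ak2, which encodes the kinase PKR that stops translation, rose by 0.79 ± 0.09 (adjusted p = 2.04e-06), and Bst2, which encodes tetherin, by 0.78 ± 0.09 (4.41e-06). Isg20, an exonuclease, rose by 0.39 ± 0.07 (adjusted p = 0.00027). Samd9l rose by 0.24 ± 0.07 (adjusted p = 0.00878), and its lowest aspirated sample (11.93) was below its highest PBS sample (12.01). Without the dye in the model this call was lost (adjusted p = 0.059).

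PARP9 and PARP14 are ADP-ribosyltransferases, and DTX3L is a ubiquitin ligase that works in a complex with PARP9. Parp9 rose by 0.65 ± 0.07 (adjusted p = 6.34e-07), Dtx3l by 0.55 ± 0.07 (5.51e-06) and Parp14 by 0.49 ± 0.08 (9.04e-05), each without overlap of the groups. An alternative probe of Dtx3l gave 0.19.

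The other 7 induced genes rose by between 0.23 and 1.80. Ifi27l2a, a long-known target gene of interferon alpha, was at 15.56 ± 0.39 (SD, n = 4) in aspirated rCNT, with replicate 1 lowest, and at 13.84, 13.86, 13.66 and 13.65 in PBS replicates 1 to 4. Its log2 difference was 1.80 ± 0.12 (3.49-fold, adjusted p = 9.33e-09). Lgals3bp, a secreted glycoprotein, rose by 1.28 ± 0.08, Ifi44 by 1.22 ± 0.11, Rtp4 by 1.04 ± 0.10, Xaf1 by 0.72 ± 0.07 and Tor3a by 0.45 ± 0.09. Their adjusted p ranged from 4.05e-09 for Lgals3bp to 0.000686 for Tor3a. Ifi35 had the smallest rise, 0.23 ± 0.07 (adjusted p = 0.00867), with aspirated samples from 11.52 to 11.83 among PBS samples from 11.26 to 11.64. That call, too, was lost without the dye in the model (adjusted p = 0.0576).

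After inhalation, the same genes did not move one way. Against untreated samples 7 of the 35 rose (28.4% of all genes did), 13 fell (32.5% of all genes) and 15 were not called. The shares of the 35 were thus 20.0% and 37.1%, so under this normalisation the counts are no result about the interferon genes as a group. The median log2 difference was -0.17, against -0.02 over all genes tested. For 6 genes the inhaled samples were all above the untreated ones (25.7% of all genes) and for 8 all below (29.1%). When arrays were centred on their median in place of quantile normalisation, the median of all genes itself moved from -0.02 to -0.15 and the split of the 35 to 3 higher (8.6%) and 24 lower (68.6%), against 15.2% and 40.1% of all genes. How the lower share compares with that of all genes thus depends on the scaling. Of all genes called, 46.6% were higher under quantile normalisation and 27.5% under median centring. Single genes are described next, with their values on each slide where these bear on the call. The inhalation groups were spread over 2 slides, with inhaled rCNT replicate 1 beside untreated replicates 1 to 3 on slide 2, and inhaled rCNT replicates 2 and 3 beside untreated replicate 4 on slide 3. Each slide thus had 1 sample in an arm, which the within-slide fits assume to vary like the other groups, and untreated replicate 4 shared an array with inhaled rCNT replicate 2. Differences within a slide are therefore given as values, without their calls.

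**Figure D2:**
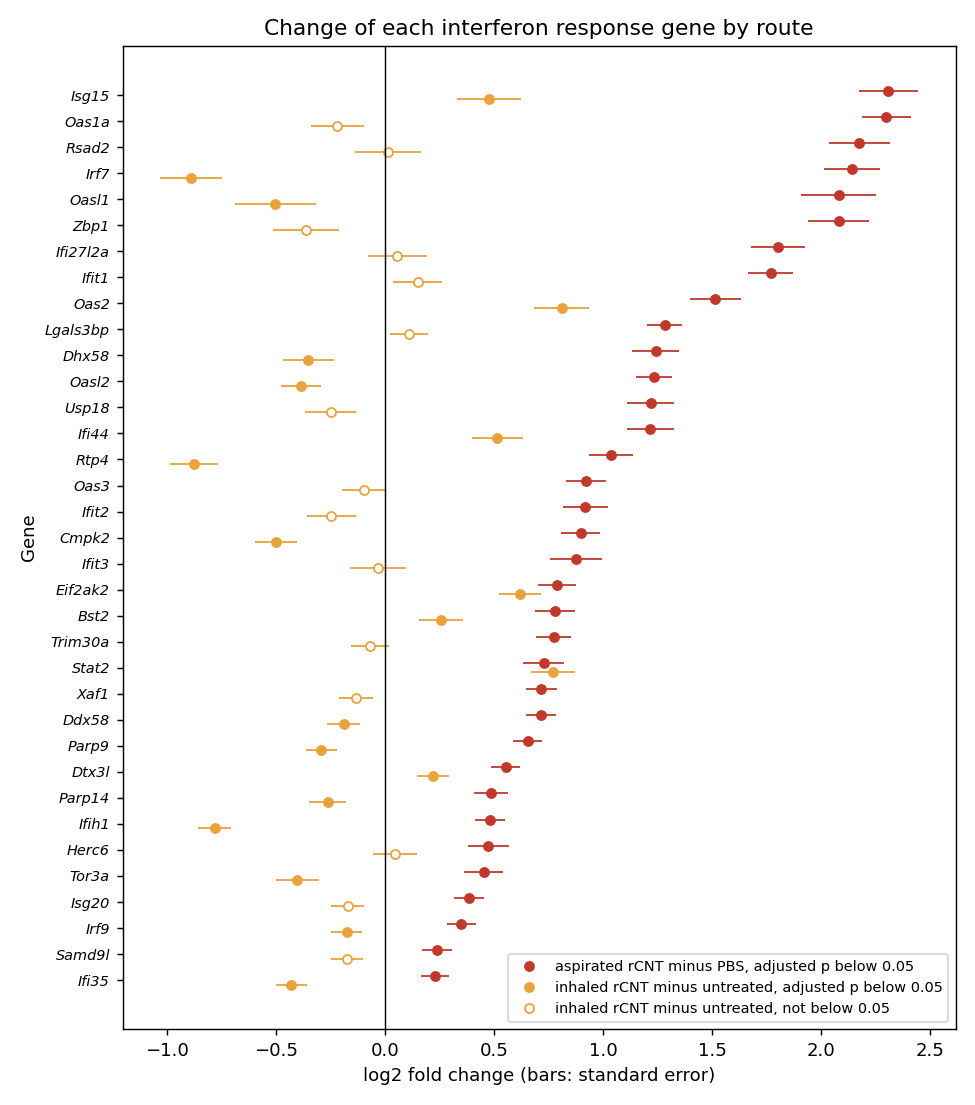
Log2 fold changes of the 35 genes (points) with their standard errors (bars) for aspirated rCNT minus PBS and for inhaled rCNT minus untreated, sorted by the first. Filled points passed an adjusted p of 0.05. All aspiration values lie above 0, between 0.23 and 2.31, while the inhalation values lie on both sides of 0, between -0.89 and 0.81.

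Irf7 fell most after inhalation. Inhaled rCNT replicates 1 to 3 stood at 7.80, 7.70 and 7.97 and untreated replicates 1 to 4 at 8.78, 8.79, 8.44 and 8.68. The inhaled samples were all below the untreated ones, with a log2 difference of -0.89 ± 0.14 (SE, n = 3 and 4; adjusted p = 4.96e-05). Within slide 2 the difference was -1.06 and within slide 3 it was -0.70. Rtp4, a receptor-transporting protein that can dampen the response, stood at 12.23, 11.88 and 11.79 in inhaled rCNT replicates 1 to 3 and at 12.89, 12.82, 12.58 and 12.92 in untreated samples. It fell by 0.87 on the log2 scale (SE 0.11, adjusted p = 5.21e-06). Ifih1 stood at 10.28, 10.19 and 10.12 in inhaled rCNT and between 10.90 and 11.07 in untreated samples. It fell by 0.78 (SE 0.08, adjusted p = 3.54e-07), and its alternative probe gave -0.52. Ifi35 fell by 0.43 (SE 0.07, adjusted p = 7.86e-05) and Tor3a by 0.40 (SE 0.10, adjusted p = 0.00231). Within slides 2 and 3 the differences were -0.66 and -0.99 for Rtp4, -0.71 and -0.78 for Ifih1, -0.43 and -0.50 for Ifi35 and -0.45 and -0.59 for Tor3a.

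The other 8 genes that fell did so by 0.50 or less. Oasl1 and Cmpk2 both fell by 0.50 (adjusted p = 0.0283 and 0.00035), Oasl2 by 0.39 (0.00162), Dhx58 by 0.35 (0.0161), Parp9 by 0.29 (0.00211), Parp14 by 0.26 (0.0142), Ddx58 by 0.19 (0.0388) and Irf9 by 0.18 (0.0406). All 8 were below 0 within each slide. Oasl1 differed most between slides, with -0.09 within slide 2 and -1.04 within slide 3, followed by Dhx58 with -0.17 and -0.55. The call of Oasl1 was lost without inhaled rCNT replicate 3, without untreated replicate 2 or without untreated replicate 4, that of Dhx58 without inhaled rCNT replicate 2 or untreated replicate 4, and that of Parp14 without inhaled rCNT replicate 3 or untreated replicate 1. The call of Ddx58 was lost without inhaled rCNT replicate 1 or 3 or untreated replicate 1, 2 or 4. That of Irf9 was lost without any of these or without aspirated rCNT replicate 2 or 4. With slide as a block the call of Parp14 was also lost (adjusted p = 0.0595).

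Of the 7 genes that rose after inhalation, Oas2, Stat2, Eif2ak2 and Ifi44 rose by 0.50 or more, and within slides 2 and 3 they differed by 0.90 and 0.78, 0.80 and 0.74, 0.75 and 0.69, and 0.62 and 0.70. Oas2 stood at 10.73, 10.65 and 10.45 in inhaled rCNT replicates 1 to 3 and at 10.02, 9.75, 9.55 and 9.82 in untreated samples, a log2 difference of 0.81 ± 0.13 (adjusted p = 4.2e-05). Stat2 stood at 11.72, 11.82 and 11.64 and at 11.01, 11.20, 10.71 and 10.96, a difference of 0.77 ± 0.10 (adjusted p = 8.5e-06). Eif2ak2 was at 9.18 ± 0.18 (SD, n = 3) in inhaled rCNT and at 8.72, 8.57, 8.61 and 8.39 in untreated samples, a difference of 0.62 ± 0.09 (adjusted p = 3.75e-05). For each of these 3 the groups did not overlap. Ifi44 rose by 0.52 ± 0.12 (adjusted p = 0.00135), a call lost under median centring (adjusted p = 0.0501). Isg15 rose by 0.48 ± 0.15 (adjusted p = 0.0101), with 0.65 within slide 2 and 0.26 within slide 3. Its call was lost under median centring (0.12, adjusted p = 0.584) and with the mean of all probes. The other probe of Isg15 gave 0.00 after inhalation. Bst2 (0.26, adjusted p = 0.0365) and Dtx3l (0.22, adjusted p = 0.0163) differed by 0.17 and 0.25 within slide 2 and 0.26 and 0.11 within slide 3, and both turned below 0 under median centring (-0.14 and -0.06). The call of Bst2 was lost without inhaled rCNT replicate 2 or 3 or without untreated replicate 1, 2 or 3. That of Dtx3l was lost without inhaled rCNT replicate 2 or untreated replicate 1. Both calls were also lost with slide as a block (adjusted p = 0.106 for Bst2 and 0.0559 for Dtx3l).

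Of the 8 genes with the largest rises after aspiration, 5 were not called after inhalation. Rsad2 was at 8.35, 8.32 and 7.80 in inhaled rCNT and at 8.08, 8.20, 8.25 and 8.13 in untreated samples, a difference of 0.02 ± 0.15 (adjusted p = 0.939). Oas1a differed by -0.22 ± 0.12 (adjusted p = 0.137), Zbp1 by -0.36 ± 0.15 (0.0521), Ifi27l2a by 0.06 ± 0.13 (0.729) and Ifit1 by 0.15 ± 0.11 (0.262). Zbp1 passed the threshold in several other settings, among them with slide as a block (adjusted p = 0.00172), and differed by -0.38 within slide 2 and -0.72 within slide 3. Herc6, Trim30a, Ifit2, Ifit3, Usp18, Isg20, Samd9l, Xaf1 and Lgals3bp were also not called, with differences between -0.25 and 0.11. Oas3 was not called either. It was well above background in 0 of 3 inhaled rCNT and 1 of 4 untreated samples, so no difference is given for it. None of the 35 genes reached a 2-fold rise after inhalation, which 4.16% of all genes did.

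**Figure D3:**
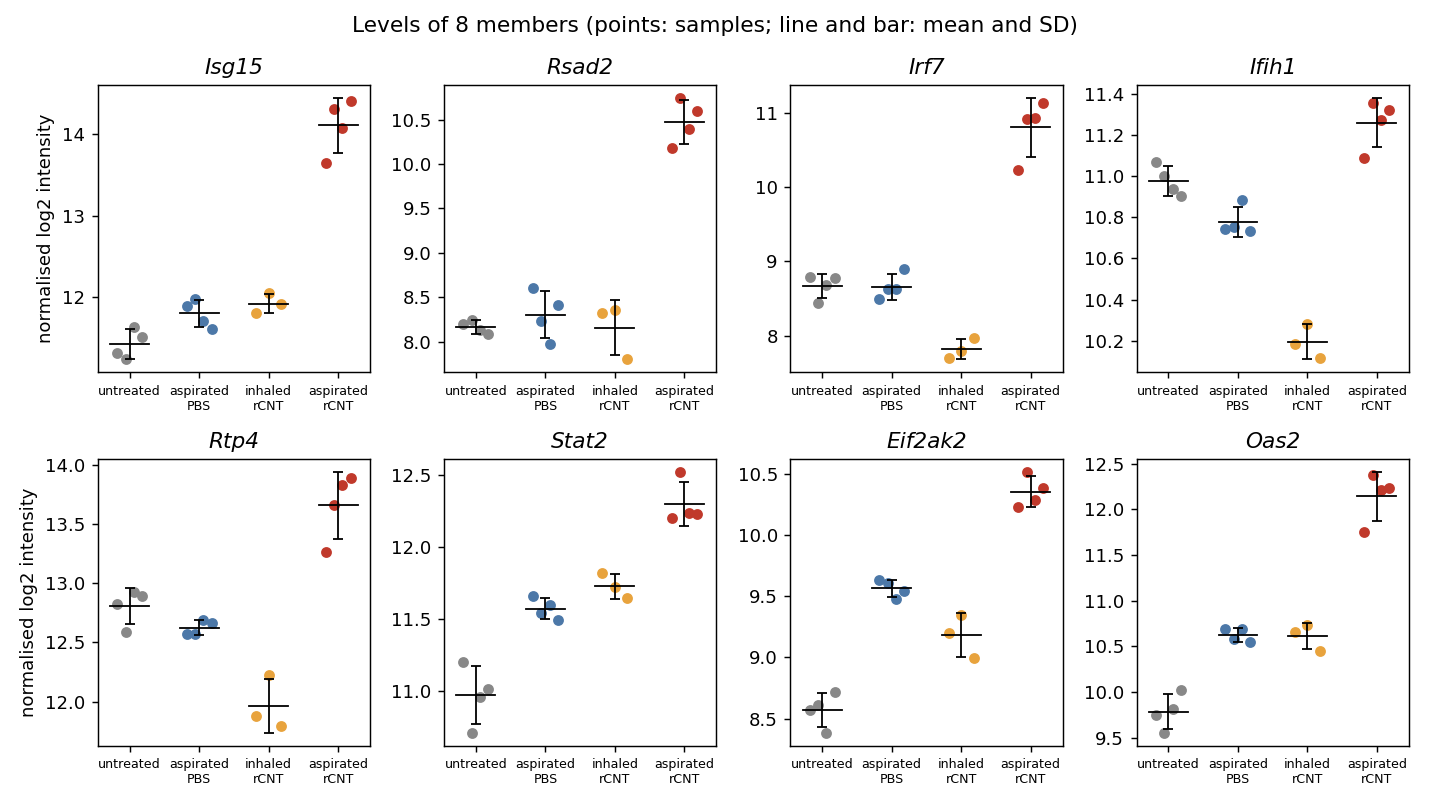
Normalised log2 intensity of 8 of the genes in the 4 groups (points, samples; line and bar, mean and SD; each panel has its own axis, which does not start at 0). Aspirated rCNT is highest in each panel, Irf7, Ifih1 and Rtp4 are lowest in inhaled rCNT, and Stat2, Eif2ak2 and Oas2 are lowest in untreated samples.

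The effects of the routes were then compared gene by gene, as the difference of the aspiration effect and the inhalation effect. This difference was higher for 33 of the 35 genes, as it was for 28.4% of all genes, with a median of 0.95 against -0.01 over all genes tested. It was largest for Irf7, 3.03 ± 0.19 (adjusted p = 6.72e-09), which rose after aspiration and fell after inhalation. Oasl1 (2.58 ± 0.25), Oas1a (2.52 ± 0.17), Zbp1 (2.44 ± 0.21), Rsad2 (2.16 ± 0.21) and Rtp4 (1.91 ± 0.15) followed. The exceptions were Stat2, with a difference of -0.04 ± 0.14 (adjusted p = 0.81), and Eif2ak2, with 0.17 ± 0.13 (adjusted p = 0.284). A p above the threshold does not show that the effects are alike. The calls of Herc6 and Dtx3l, with differences of 0.43 and 0.33, were each lost in some settings, that of Herc6 also without inhaled rCNT replicate 2 (adjusted p = 0.0517). All aspiration samples, exposed and control, were on slide 1, so a shift of that slide as a whole cancels within the aspiration effect. The inhalation groups were spread unevenly over slides 2 and 3, so a shift between these slides can enter the difference between effects. Any change that a slide makes to the size of an effect, and any difference between the kinds of control, cannot be told apart from the route.

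The control groups were not at the same levels. PBS samples were higher than untreated ones for 10 of the 35 genes, or 28.6% (26.3% of all genes), and lower for 7, or 20.0% (33.1% of all genes). Eif2ak2 differed most, at 9.48, 9.63, 9.54 and 9.61 in PBS replicates 1 to 4 and 8.72, 8.57, 8.61 and 8.39 in untreated ones, a log2 difference of 0.99 ± 0.09 (adjusted p = 1.5e-07). Oas2 (0.84 ± 0.12), Ifi44 (0.81 ± 0.11) and Stat2 (0.60 ± 0.09) followed, all without overlap of the groups. Inhaled rCNT minus untreated, which uses the same untreated samples, gave 0.62, 0.81, 0.52 and 0.77 for these genes in the same order. The lower ones in PBS were Cmpk2 (-0.57 ± 0.09), Parp9 (-0.37 ± 0.07), Zbp1 (-0.37 ± 0.14), Usp18 (-0.36 ± 0.11), Ifit1 (-0.34 ± 0.10), Oasl2 (-0.25 ± 0.08) and Ifih1 (-0.20 ± 0.07). Aspiration of PBS and lack of treatment were on separate slides, so the control, the route and the slide cannot be told apart here. Under median centring 14 genes were higher (40.0%, against 29.9% of all genes) and 1 lower (2.9%, against 20.6%). Without untreated replicate 2 the count of lower genes was 4 of the 35, against 7962 of all 25251 genes.

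Levels in inhaled rCNT were set beside those in PBS with the same limit. One gene, Ifit1, was higher (0.49 ± 0.11, adjusted p = 0.0017), as were 27.5% of all genes, and 13 were lower, as were 27.7%. Under median centring these counts were 0 and 34, or 97.1% lower, against 13.9% and 51.9% of all genes. The lower ones were led by Irf7 (-0.88 ± 0.14), Rtp4 (-0.69 ± 0.11), Samd9l (-0.64 ± 0.07) and Ifih1 (-0.58 ± 0.08). Oas3 was also called, but its fitted difference ran from -2.13 to -0.45 across settings and is no measure of size. Because it was not well above background in any inhaled sample, its level in PBS was at least 1.44-fold and that in aspirated rCNT at least 2.72-fold that in inhaled rCNT. In each bound the dim samples entered with their own value, or with the weakest signal that any probe well above background gave in that sample where this was higher. For Ifih1, Irf7, Parp14, Ifi35 and Rtp4 all inhaled samples were below all samples of the other 3 groups, which 10.9% of all genes showed. In the opposite order, all aspirated rCNT samples were above all samples of the other 3 groups for 32 of the 35 genes, against 9.16% of all genes. The 3 without such a gap were Samd9l, Parp9 and Ifi35.

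Of 18 listed interferon genes, 11 were tested. After aspiration 2 of the 11 rose and 0 fell, against 20.6% and 26.5% of all genes. Their median log2 difference was 0.05. Ifng (0.35 ± 0.13, adjusted p = 0.0415) and Ifnl3 (0.20 ± 0.08, adjusted p = 0.046) were the ones that rose. Of the interferon alpha genes, Ifna13 was well above background in 0 of 4 aspirated rCNT and 1 of 4 PBS samples, so no difference is given for it. The other alpha genes and Ifnab were well above background in all samples of both groups and differed from PBS by between -0.11 and 0.05, with adjusted p of 0.215 and above. They were dim, with means in aspirated rCNT of 6.59 to 7.12. The weakest signals well above background in the samples of both groups were 6.03 to 6.27. So near that floor, these values do not show that the genes were unchanged. Near-identical alpha genes may share probes. Ifnb1, Ifna4, Ifna7 and Ifne had probes that did not pass the filter. After inhalation Ifng (-0.59 ± 0.14), Ifnk (-0.36 ± 0.09) and Ifnl3 (-0.30 ± 0.08) fell and none rose. Of all genes, 32.5% fell and 28.4% rose. Ifng was at 6.42 to 6.48 in inhaled rCNT, where the weakest signals well above background were 6.06 to 6.29. In untreated samples it was well above background in 3 of 4. So near the floor, the size of its fall is not settled. Between the controls, PBS minus untreated, 1 of the 11 rose and 6 fell (26.3% and 33.1% of all genes). For inhaled rCNT minus PBS 6 rose and 2 fell (27.5% and 27.7% of all genes).

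Of 16 receptor and signalling genes, 7 rose and 2 fell after aspiration, against 20.6% and 26.5% of all genes. Their median log2 difference was 0.10. The inhibitors of cytokine signalling Socs1 (1.69 ± 0.14, adjusted p = 7.77e-08) and Socs3 (1.06 ± 0.12, adjusted p = 4.02e-06) led. Jak2 and Ifngr2, a chain of the interferon gamma receptor, each rose by 0.54. Stat3 rose by 0.19 ± 0.06 and Ifnar2 by 0.17 ± 0.06. Ifnlr1 (-0.42 ± 0.08) and Ifngr1 (-0.37 ± 0.07) fell, while Ifnar1 (-0.01), Jak1 (-0.05) and Tyk2 (0.03) were not called. After inhalation 3 rose and 9 fell, against 28.4% and 32.5% of all genes. Stat3 rose by 0.75 ± 0.07, Socs3 by 0.57 ± 0.14 and Ifnlr1 by 0.21 ± 0.08. The falls included Socs1 (-0.70 ± 0.15), Irf8 (-0.59 ± 0.13), Ifnar2 (-0.50 ± 0.07) and Jak1 (-0.49 ± 0.07).

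Of 20 further genes of nucleic acid sensing, 11 rose and 3 fell after aspiration, against 20.6% and 26.5% of all genes. Their median was 0.31. The 5 largest rises were those of Ifi204 (1.61 ± 0.12), of Sting1 (1.42 ± 0.07, adjusted p = 2.81e-10), the adaptor of DNA sensing, of the transcription factor gene Irf5 (1.13 ± 0.11), of Cgas (0.92 ± 0.07), which encodes the DNA sensor upstream of STING, and of Trex1 (0.85 ± 0.10), a DNA exonuclease gene. Irf3 (-0.24), Mavs (-0.19) and Rnf125 (-0.27) fell. After inhalation 5 rose and 8 fell, against 28.4% and 32.5% of all genes. Cgas (0.65 ± 0.07), Trim25 (0.64 ± 0.08) and Irf3 (0.54 ± 0.06) led the rises, and Nlrx1 (-0.93 ± 0.09) and Rnf125 (-0.87 ± 0.09) the falls.

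In a further list of interferon-induced genes outside the 39, 43 were tested. After aspiration 25 rose and 3 fell, against 20.6% and 26.5% of all genes, with a median of 0.22. The 3 with the smallest p were Ifi211 (2.26 ± 0.12), Phf11d (0.98 ± 0.08) and Slfn8 (1.25 ± 0.13). After inhalation 13 rose and 17 fell, against 28.4% and 32.5% of all genes. The 3 with the smallest p all fell: Lgals9 (-1.30 ± 0.10), Shisa5 (-0.74 ± 0.06) and Tor1aip1 (-0.83 ± 0.08).

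Markers of monocytes and macrophages, cells that express many interferon-induced genes, were higher in the same samples as the interferon genes. Of 14 tested markers 11 rose after aspiration, C1qb (2.20) and C1qc (1.93) among them. The 2 that fell were Lyz2 (mean 15.04 in aspirated rCNT, 15.63 in PBS) and Itgam (14.27 and 14.64). Over all genes, 20.6% rose and 26.5% fell after aspiration. The summed linear level of the 14 markers was 375821 to 455002 in aspirated rCNT and 173835 to 197682 in PBS. It was 215207 to 236355 in inhaled rCNT and 148994 to 173682 in untreated samples. Most of this difference in sums was Chil3, a chitinase-like protein gene, which held 69.6% to 75.0% of the sum in aspirated rCNT and 39.2% to 43.0% in PBS. Without it the sum was 111125 to 121603 in aspirated rCNT, 105207 to 118272 in PBS, 90726 to 91603 in inhaled rCNT and 96128 to 111107 in untreated samples, so that aspirated rCNT and PBS overlapped. Lyz2 and Itgam, which fell, were among the brightest of the remaining markers and weigh on that sum. The median log2 difference of the 14 after aspiration was 1.51. All 14 were well above background in at least 1 sample of each group. The mean deviation of this list in aspirated rCNT was 0.75 in replicate 1 and 0.96, 0.88 and 0.88 in replicates 2, 3 and 4. Their part in the rise of the interferon genes was not tested. Of 10 plasmacytoid dendritic cell markers, 4 rose, Clec10a (1.80) among them, and 3 fell after aspiration, Siglech (-0.38) among the latter, with a median of 0.21. The summed level was 115926 to 131501 in aspirated rCNT and 149691 to 160031 in PBS, of which Siglech held 79.2% to 84.1%, and without it 23484 to 25836 and 25198 to 27754. The Siglech probe was very bright (mean 16.60 in aspirated rCNT and 16.98 in PBS), and whether it reads Siglech alone was not tested. Of 10 neutrophil markers 6 rose and 1 fell, with sums of 100831 to 124693 and 100557 to 119560, and of 34507 to 58067 and 23765 to 32907 without the brightest marker. After inhalation 5 of the 14 monocyte and macrophage markers rose and 6 fell, against 28.4% and 32.5% of all genes. The lymphocyte markers were mostly lower, with 8 of 8 natural killer cell, 7 of 8 B cell and 7 of 9 T cell markers lower. The summed level of the natural killer cell markers was 2865 to 4221 in inhaled rCNT and 8503 to 18773 in untreated samples, that of the B cell markers 3100 to 4298 and 7384 to 27199, and that of the T cell markers 8570 to 9452 and 9603 to 14959. Without the brightest marker they were 1160 to 1479 and 2058 to 3811, 1992 to 2558 and 4135 to 13214, and 4326 to 5268 and 6230 to 11452. The brightest T cell marker, Cd4, had a higher mean in inhaled rCNT (12.02) than in untreated samples (11.68). It held 44.3% to 49.5% of the T cell sum in inhaled rCNT. Of the B cell markers, 2 were not well above background in any inhaled sample. Their part in the falls of interferon genes after inhalation was not tested. All 12 lung tissue markers were tested and none was below background throughout a group. After aspiration 2 rose and 6 fell, with a median log2 difference of -0.39, Hopx (-1.12), Ager (-0.70) and Foxj1 (0.71) having the smallest p. After inhalation 2 rose and 4 fell, with a median of -0.20. Their part in the differences of the interferon genes was not tested.

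**Figure D4:**
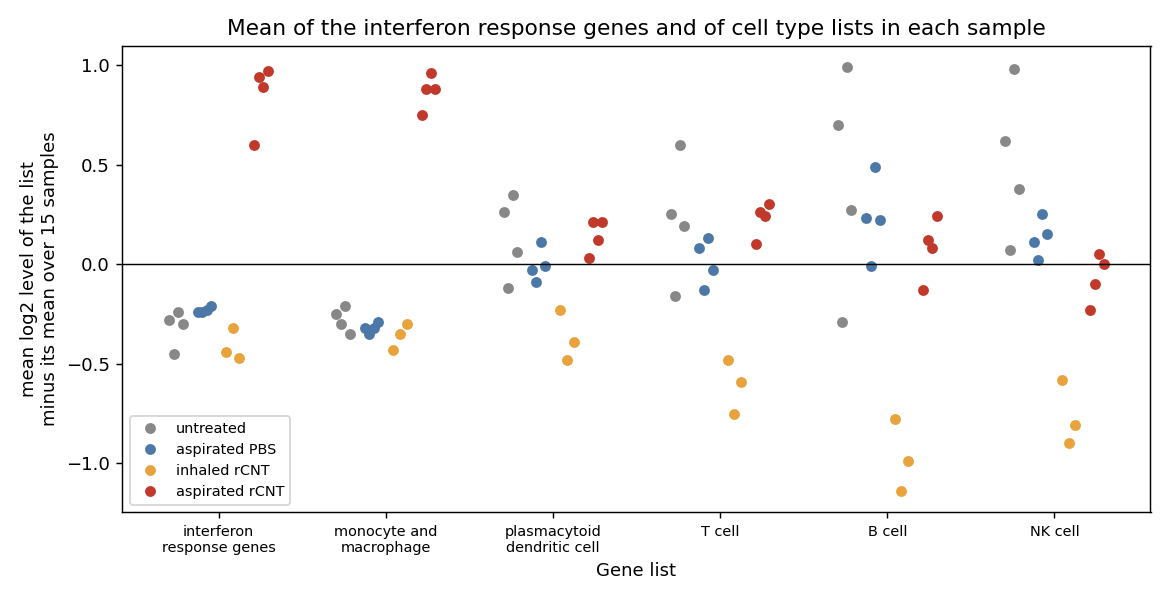
Mean over each gene list (x axis) of the log2 level minus the gene's mean over the 15 samples, 1 point per sample, coloured by group. In aspirated rCNT the interferon response genes (0.60 to 0.97) and the monocyte and macrophage markers (0.75 to 0.96) are both high, and in inhaled rCNT the T cell, B cell and NK cell lists are low.

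There were 14 arrays on 3 slides for the 15 samples, since 1 array held both inhaled rCNT replicate 2 (Cy5) and untreated replicate 4 (Cy3). Between 52.2% and 61.9% of the spots of a sample were well above background, and no spot was saturated. Within groups the samples correlated at 0.9939 to 0.9980 over all genes tested. For the 35 genes the median SD between replicates was 0.166 in aspirated rCNT, 0.098 in PBS, 0.135 in inhaled rCNT and 0.14 in untreated samples.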

How the data were processed

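The 39 genes and the other gene lists were chosen with earlier results of these data known. Per the file headers, the authors extracted the deposited spot intensity values with Agilent Feature Extraction 11.0.1.1, and per the submitters' processing notes limma was also used. The deposited series table, taken here as log2 with its centring unknown (column medians 6.58 to 6.59), served as an alternative. Each sample is 1 channel (Cy3 or Cy5). From its median spot intensity the background was removed by normexp with an offset of 50, and after taking log2 the 15 channels were quantile-normalised together. Control spots and 106 to 154 outlier spots per sample were left out. The filter on signal well above background then kept 34271 of the 55681 probes that were not controls. Of 29123 probes with a RefSeq accession, 27656 matched a symbol in a table of GRCm38.p6. Groups and dye were fitted in all 15 samples with limma 3.58.1 (R 4.3.3), which was tested on simulated data, with Benjamini-Hochberg adjustment over 25251 genes and a threshold of 0.05. Of the other pathway genes, all ligand, receptor and sensing genes may be named, and of each other list the 3 with the smallest p per comparison. Some genes that this rule takes in are not reported here. Ifit3b is named outside this rule, as a near-identical gene. Lyz2 and Itgam are named because they fell, and Cd4 as the brightest marker of its list. The title of untreated replicate 1 names PBS while its other labels say untreated, so it was kept there and also left out as an alternative. Same-numbered samples of a route deviated together with correlations of -0.43 to 0.08. Every same-numbered aspiration pair had opposite dyes. Aspiration pairs of different numbers gave -0.35 to -0.22 with opposite dyes and 0.10 to 0.54 with the same dye. In aspiration, number and dye are thus mixed, and these values cannot show or exclude pairing by number. Inhalation pairs gave -0.06 to 0.08 with the same number and -0.09 to 0.16 with different numbers. The main fit did not pair samples. Array file names of the inhalation samples mention pools. The number of arrays limits the precision, and p-values measure the spread between these samples. Alternatives were the processed signal, the series table, offset 16, median centring, 2 other filters, the mean of all probes, no dye term, slide and replicate blocks, trended or weighted fits, single slides and leaving out each sample.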

Additional observations from a re-analysis of the deposited data

Results flagged for a closer look

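The effect of aspiration and that of inhalation differed, by limma's test of the difference itself, for 33 of the 35 genes, each in the direction of aspiration. On the log2 scale the difference was 3.03 for Irf7, 2.58 for Oasl1, 2.52 for Oas1a, 2.44 for Zbp1, 2.16 for Rsad2, 1.91 for Rtp4, 1.83 for Isg15 and 1.75 for Ifi27l2a. It was 1.62 for both Ifit1 and Oasl2, 1.59 for Dhx58, 1.47 for Usp18, 1.40 for Cmpk2, 1.26 for Ifih1, 1.17 for Lgals3bp, 1.16 for Ifit2 and 1.02 for Oas3. Oas3 was well above background in 0 of 3 inhaled and 1 of 4 untreated samples, and its difference ran from 0.96 to 2.41 across settings, so its size is not settled. Smaller differences were 0.95 for Parp9, 0.91 for Ifit3, 0.90 for Ddx58, 0.85 for both Xaf1 and Tor3a, 0.84 for Trim30a, 0.75 for Parp14, 0.70 for both Oas2 and Ifi44 and 0.66 for Ifi35. The smallest that passed were 0.56 for Isg20, 0.53 for Irf9, 0.52 for Bst2, 0.43 for Herc6, 0.41 for Samd9l and 0.33 for Dtx3l.

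Single samples stood far from the rest of their group, by Dixon's test on each gene, in 6 of 105 groups of 4 samples, and chance flags about 1 in 20. In aspirated rCNT, replicate 1 was low for Irf9 (12.44, next 12.57), Bst2 (12.84, next 13.38) and Lgals3bp (14.36, next 14.65), and replicate 3 was high for Stat2 (12.53, next 12.24). In PBS, replicate 1 was high for Ifih1 (10.88, next 10.75) and replicate 4 for Usp18 (10.48, next 10.42).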

How the results depend on the processing

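The count of 35 rises after aspiration lay between 33 and 35 in the other settings, the lowest without a dye term, and was 35 without any single sample. That of 33 larger effects after aspiration than inhalation lay between 32 and 33. Median centring gave 3 higher and 24 lower genes after inhalation (8.6% and 68.6%, against 15.2% and 40.1% of all genes), 1 lower gene for PBS minus untreated (2.9%, against 20.6%), and 0 higher and 34 lower genes for inhaled rCNT minus PBS (97.1% lower, against 51.9%). It turned the sign after inhalation of Bst2 (-0.14), Dtx3l (-0.06), Ifi27l2a (-0.40) and Lgals3bp (-0.33). For inhaled rCNT minus PBS it turned Zbp1 (-0.33), Stat2 (-0.36), Isg15 (-0.41), Usp18 (-0.41), Cmpk2 (-0.38), Bst2 (-0.48), Parp9 (-0.46), Ifi27l2a (-0.47) and Lgals3bp (-0.41). The cause was not tested. Calls within single slides are not counted here, since each slide had 1 sample in an arm, which is assumed to vary like the other groups. Leaving out 1 sample gave 5 to 7 higher and 9 to 16 lower genes after inhalation. It gave 7 to 11 and 4 to 9 for PBS minus untreated, and 1 and 10 to 14 for inhaled rCNT minus PBS. The 4 lower genes for PBS minus untreated came without untreated replicate 2, when 7962 of the 25251 genes tested were lower. With the replicate block, 35 genes rose after aspiration, 7 rose and 10 fell after inhalation and 33 differed between routes, with 4 residual degrees of freedom in place of 10. Shares over all genes are not given for the leave-out ranges and this block. Their inhalation and control counts are thus no result about the interferon genes as a group. No slide or replicate block could be fitted for PBS against the inhalation groups.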

Other observations

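For 13 of the 35 genes a further, dimmer probe passed the filter, and none of these gave a fall after aspiration. The further probes of Zbp1 (2.03), Isg15 (2.21), Oas1a (1.96), Cmpk2 (0.95) and Lgals3bp (1.13) gave log2 rises after aspiration close in size to those reported, while those of Xaf1 (0.31), Tor3a (0.18), Ddx58 (0.18), Dtx3l (0.19) and Ifih1 (0.16) gave less than those of the brightest probe (0.72, 0.45, 0.72, 0.55 and 0.48). After inhalation the further probe of Lgals3bp gave -0.23, the opposite sign to the 0.11 of the brightest probe, and that of Tor3a gave -0.72 beside -0.40.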
